A study of Drosophila melanogaster with 2 samples.

Results

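The genes described here build and remodel the chitin matrix of the insect body surface and gut: the Tweedle cuticle proteins, the chitinases and their Idgf relatives, the chitin deacetylases, the chitin-binding obstructor and peritrophin proteins, and 3 genes of chitin synthesis and assembly. They were chosen by gene symbol among the probes annotated with a single gene, by a rule that uses no measured value. The rule found 61 genes, on 65 probes, of 12236 genes in all. Of these 61 genes, 25 were Tweedle genes, 16 were chitinase or Idgf genes, 6 deacetylases, 11 chitin-binding genes and 3 genes of synthesis and assembly.

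RNA of fruit fly (Drosophila melanogaster) larvae was compared on 2 two-colour microarrays, each of which held RNA of GMR X GFP-B52 larvae and RNA of GMR X GFP-NLS larvae. The B52 larvae make the splicing factor B52, an SR protein (serine- and arginine-rich), fused to green fluorescent protein, and the control larvae make the fluorescent protein with a signal for the nucleus (NLS). The GMR element, common to both crosses, is known in fly genetics as an eye promoter, so a transgene under it would be active in a small share of the larval body. The dyes were exchanged between the arrays, with Cy5 on the B52 RNA of replicate 1 and Cy3 on that of replicate 2. The labels give neither the age of the larvae nor the tissue taken, and they call the replicate 1 control cytoplasmic RNA, where the other 3 channels are called polyA RNA. Separate RNA extracts are not stated, and p-values therefore cover only the difference of these 2 arrays from each other, which may be technical.

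Chitin is a polymer of N-acetylglucosamine that epidermal, tracheal and gut cells make at their apical surface. A chitin synthase in the membrane extrudes the chains, deacetylases and chitin-binding proteins order them into a fibrous matrix, and cuticle proteins such as the Tweedles fill it. At each moult chitinases digest the old cuticle while a new one forms below, so many of these genes are known for levels that follow the moulting cycle. In the gut a related matrix, the peritrophic matrix, lines the midgut and is built on peritrophins.

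The deposited values are log ratios whose direction and log base are not stated, so most values are given in 2 readings, and the reading is named where there is 1. The dye reading takes the ratio as Cy5 to Cy3, so that replicate 2 changes sign. The channel reading takes both arrays as B52 over control as they stand. A positive value is higher in B52 larvae in the reading named, and neither reading is preferred. Values given by dye or by channel below are those of the dye or the channel reading. A gene whose deposited values have opposite signs on the arrays thus has a single sign in the dye reading, and a gene with equal signs has it in the channel reading. An array ratio of bulk RNA cannot tell fewer cells of a type from less RNA per cell.

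No matrix gene passed the test in either reading. Limma, with p-values adjusted over all 11883 genes and unnamed probes measured on both arrays, called 0 at an adjusted p of 0.05 (0% of those tested by dye and 0% by channel). At an unadjusted p under 0.05 it had 4 matrix genes in the dye reading, Cht10, Cht7, Peritrophin-A and serp, all higher in B52 larvae, of 48 measured on both arrays. Over all features tested, 5.55% were at that level, with 3.85% higher and 1.69% lower. Cht11 alone was at that level in the channel reading, lower in B52 larvae, beside 6.86% of all features (3.8% higher and 3.06% lower). The robust form of limma had 5 and 2 matrix genes there in the dye and the channel reading, beside 638 and 814 of all features. An ordinary 1-sample test had 3 and 2, beside 573 and 693 features. These were other genes than those of limma, Cht5, obst-I and verm by dye and Cda4 and TwdlF by channel. Both forms had 0 after adjustment. With the median of each print block, 1 of the 24 sub-grids of spots on an array, removed, limma had 7 and 2. Over all 11883 features it then had 787 by dye and 633 by channel. The lowest adjusted p among the matrix genes was 0.629 by dye and 0.710 by channel (limma).

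Class medians in the dye reading ranged from -0.0815 for chitin-binding genes to 0.127 for chitinase and Idgf genes, beside -0.008 over all features, and no test was made between classes. Chitinase and Idgf genes had mostly positive values, Tweedle genes lay around 0, and the chitin-binding genes split into positive and negative members. Of the 48 genes, 19 were positive on both arrays, 11 negative on both and 18 of unlike sign. Over all features the positive share was 21.9% and the negative share 25.7% in this reading. By channel 9 of the 48 had positive and 9 had negative values on each array, beside 27.5% and 24.9% of all features. A single sign on both arrays was thus seen for 30 matrix genes in the dye reading, or 62.5%, and for 47.6% of all features. For the channel reading it was 18 genes, or 37.5%, beside 52.3% of all features. These shares describe the arrays, and no test was made of them, as genes are not replicates.

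**Figure D1:**
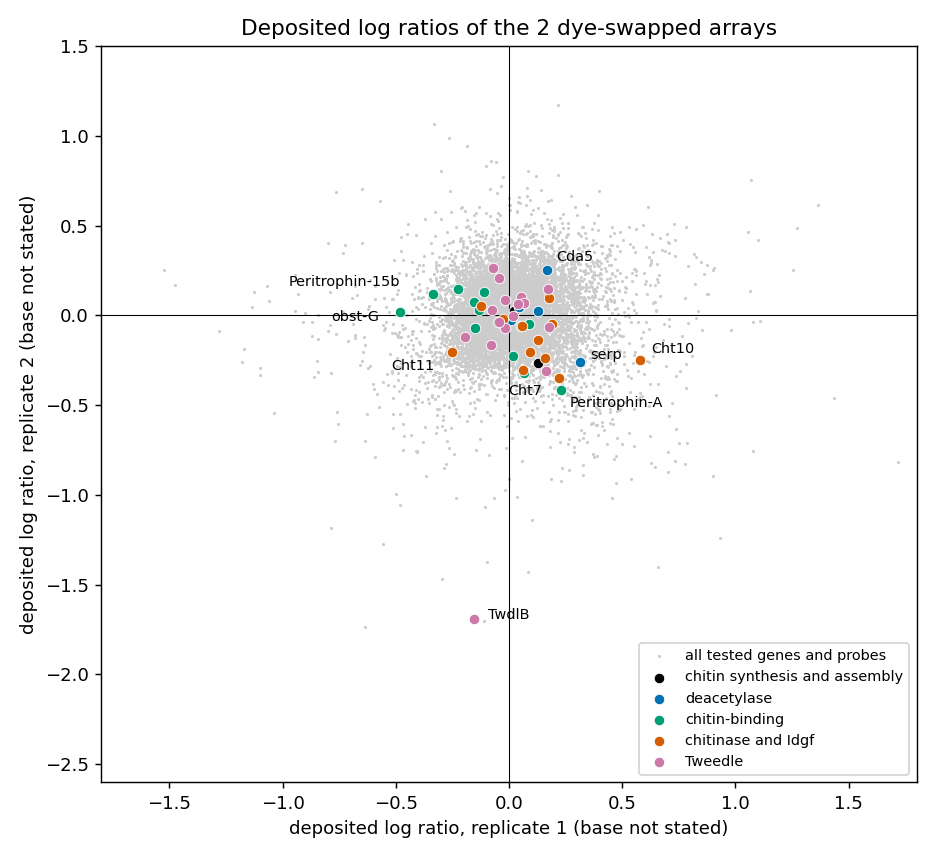
Deposited log ratio on replicate 1 (x axis) against replicate 2 (y axis), base not stated, for all 11883 features (grey) and the 48 matrix genes measured on both arrays (coloured by class). Points in the upper left and lower right have a single sign in the dye reading, and the other corners a single sign in the channel reading. Cht10, serp, Cht7 and Peritrophin-A lie at the lower right, and TwdlB stands apart at -1.69 on replicate 2.

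Synthesis begins in the cytoplasm, where mmy, the mummy gene, encodes the enzyme that makes UDP-N-acetylglucosamine, the activated sugar. It had deposited log ratios of -0.050 on replicate 1 and -0.035 on replicate 2. The mean for mmy was -0.042 ± 0.011 by channel and -0.0075 ± 0.060 by dye (SD, n = 2 arrays, as for all means below). The chitin synthase of cuticle and trachea is kkv, krotzkopf verkehrt. For kkv the dye reading gave 0.128 on replicate 1 and 0.268 on replicate 2, a mean of 0.20 ± 0.099 with a 95% interval from -0.038 to 0.43 (limma adjusted p = 0.999). Both arrays were positive in that reading. The channel-reading mean of kkv was -0.07 ± 0.28. The Knickkopf protein, from knk, organises new chitin and protects it from chitinases. Its value was 0.023 on both arrays, so the dye-reading mean was 0. The channel-reading mean of knk was 0.118 with print-block medians removed. The class median was 0 ± 0.0085 by dye and -0.042 ± 0.041 by channel (0.0195 with print-block medians removed). Here and below, ± on a median is the SD of the 2 array medians. It tells how far the arrays lay apart and is not the error of the median. The median itself is taken over the gene means and can lie outside the array medians, here 0.023 and 0.035 by dye.

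Other genes of the pathway were read from a list of 11, of which 9 were measured on both arrays. Of these, 5 were positive and 1 negative on both arrays in the dye reading, with a median of 0.0915 ± 0.0997. The channel reading had 2 positive and 1 negative on both, with a median of 0.049 ± 0.155. Limma made 0 calls in the list at an adjusted p of 0.05. At an unadjusted p under 0.05 it had 2 genes in each reading, all higher in B52 larvae. Over all features that share was 5.55% by dye (3.85% higher) and 6.86% by channel (3.8% higher). Rebuff, from reb, a protein needed with the synthase for chitin deposition, had dye-reading values of 0.316 on replicate 1 and 0.427 on replicate 2 (mean 0.37 ± 0.078, limma adjusted p = 0.563), and a channel-reading mean of -0.056 ± 0.53. The related gene exp, expansion, had the opposite sign, with a dye-reading mean of -0.091 ± 0.056 (-0.039 ± 0.13 by channel). The hexosaminidase gene fdl had a dye-reading mean of 0.26 ± 0.11 (0.080 ± 0.37 by channel).

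The gut chitin synthase Chs2 had 0.732 on replicate 1 and 0.331 on replicate 2 in the channel reading, a mean of 0.53 ± 0.28 (limma adjusted p = 0.663). Its dye-reading mean was 0.20 ± 0.75, so kkv and Chs2 had a single sign on both arrays in different readings. The mutase gene nst, which acts upstream of mmy in sugar activation, also had a single sign in the channel reading, at 0.28 ± 0.13 (0.092 ± 0.39 by dye). Gfat1, the first enzyme of the branch that makes the amino sugar, had -0.14 ± 0.093 there (0.066 ± 0.20 by dye).

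Deacetylases remove acetyl groups from chitin and change its texture. The neighbouring genes serp and verm, known for their role in setting the length of tracheal tubes, had unequal values. The dye reading gave serp 0.312 on replicate 1 and 0.261 on replicate 2, which lie close together. Its mean was 0.29 ± 0.036, which is 1.93-fold on a log10 scale or 1.22-fold on a log2 scale, with a 95% interval from 0.059 to 0.51 (limma adjusted p = 0.737). The channel-reading mean of serp was 0.026 ± 0.41. The gene verm, averaged over 3 probes, had 0.053 on replicate 1 and 0.060 on replicate 2 in the dye reading. Its 3 probes had dye-reading means of 0.0975, 0.0405 and 0.0305, all positive, and channel-reading means of 0.0365, -0.1075 and 0.0605.

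Cda5 had a single sign in the channel reading, with 0.170 on replicate 1 and 0.252 on replicate 2. Its mean there was 0.21 ± 0.058 with a 95% interval from -0.0016 to 0.42 (limma adjusted p = 0.727), and the dye-reading mean was -0.041 ± 0.30. With print-block medians removed the channel-reading mean of Cda5 was 0.099. Cda4 had 0.045 and 0.047 as deposited (channel-reading mean 0.046, and -0.028 with print-block medians removed), and ChLD3 0.128 and 0.022, on replicates 1 and 2 in turn. Cda9 had 0.009 on replicate 1 and 0.027 on replicate 2 in the dye reading. The deacetylase median was 0.036 ± 0.062 by dye and 0.036 ± 0.066 by channel (-0.0099 with print-block medians removed). In each reading 3 of the 6 genes were positive on both arrays and 0 were negative on both.

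Chitin-binding proteins carry the peritrophin-type domain that holds chitin, and all 11 genes of the class were measured on both arrays. As deposited, 10 of the 11 had opposite signs on the arrays, so 4 were positive and 6 negative on both in the dye reading, against 0 and 1 in the channel reading. Across these 11 genes the deposited values of the arrays had a Pearson r of -0.744, and across all features it was 0.0308. These points share the same 2 hybridisations, and genes are not replicates. The dye-reading median, -0.0815 ± 0.082, sits between the positive and the negative members and describes neither. The channel-reading median was -0.095 ± 0.107.

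The positive members in the dye reading belonged to the cuticular obstructors, the obst-A to obst-E branch of the family, in which Gasp is also called obst-C and Peritrophin-A obst-D. This split by branch was looked for after the values had been seen, so it is a description. Peritrophin-A had 0.228 on replicate 1 and 0.418 on replicate 2, with a mean of 0.32 ± 0.13. That is 2.1-fold on a log10 scale or 1.25-fold on a log2 scale, with a 95% interval from 0.079 to 0.57 (limma adjusted p = 0.703). Gasp, a secreted chitin-binding protein of the tracheal lumen and embryonic cuticle, had 0.066 and 0.319 on replicates 1 and 2 (mean 0.19 ± 0.18). For obst-B the values were 0.018 and 0.228 (mean 0.12 ± 0.15). The higher value of these 3 genes was on replicate 2. Their channel-reading means were negative, at -0.095 ± 0.46 for Peritrophin-A, -0.13 ± 0.27 for Gasp and -0.10 ± 0.17 for obst-B.

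The branch had 1 negative member, obst-A, which organises the assembly zone of the larval cuticle. It had -0.134 on replicate 1 and -0.029 on replicate 2 in the dye reading, with a mean of -0.0815 ± 0.074. In the reference annotation obst-A lies next to Peritrophin-A, the most positive of the class. The 2 probes of obst-E disagreed. One had a dye-reading mean of 0.182 and the other -0.0425, and both were positive as deposited on replicate 1, at 0.081 and 0.100. Their gene mean was 0.070 ± 0.029 in the dye reading.

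The remaining obstructors and the small peritrophins had negative dye-reading means. Values for obst-G were -0.480 on replicate 1 and -0.018 on replicate 2, so its mean of -0.25 ± 0.33 rests on replicate 1. For obst-J they were -0.225 and -0.148 (mean -0.19 ± 0.054), and for obst-I -0.110 and -0.128 (mean -0.12 ± 0.013), on replicates 1 and 2. With print-block medians removed obst-I had -0.132 and -0.0015 (mean -0.067). The channel-reading means were -0.23 ± 0.35 for obst-G, -0.038 ± 0.26 for obst-J and 0.009 ± 0.17 for obst-I. Signs differed between the arrays for obst-F, with -0.149 on replicate 1 and 0.068 on replicate 2, which was negative on both arrays in the channel reading (mean -0.11 ± 0.057). With print-block medians removed obst-F had -0.091 and 0.0195 there (mean -0.036). Peritrophin-15b had -0.335 and -0.121 in the dye reading (mean -0.23 ± 0.15, limma adjusted p = 0.951). Its neighbour Peritrophin-15a had -0.154 and -0.076 (mean -0.12 ± 0.055). By channel the pair had -0.11 ± 0.32 and -0.039 ± 0.16. The probe sequences of this pair are not used here, so a probe may read both genes.

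Chitinases cut chitin chains, and 6 of the 10 Cht genes were measured on both arrays. Cht10, which encodes a large chitinase with several catalytic domains, had the highest mean of the class in the dye reading. Cht10 had, in the dye reading, 0.579 on replicate 1 and 0.248 on replicate 2. The mean for Cht10 was 0.41 ± 0.23, which is 2.59-fold on a log10 scale or 1.33-fold on a log2 scale, with a 95% interval from 0.14 to 0.69 (limma adjusted p = 0.629). The channel-reading mean was 0.17 ± 0.58, a spread larger than the mean.

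Cht7 had 0.220 on replicate 1 and 0.351 on replicate 2 in the dye reading, with a mean of 0.29 ± 0.093 and a 95% interval from 0.051 to 0.52 (limma adjusted p = 0.769). Its channel-reading mean was -0.066 ± 0.40. Cht5, known in insects as a chitinase of the moulting fluid, had 0.129 and 0.139 on the 2 arrays in the dye reading, nearly equal (mean 0.13 ± 0.0071). That closeness was lost with print-block medians removed, where Cht5 had 0.1795 and 0 in the dye reading (mean 0.090). Cht6 was the only one of the 6 Cht genes negative on both arrays in that reading, at -0.122 and -0.051. Cht5 and Cht6 had channel-reading means of -0.005 ± 0.19 and -0.036 ± 0.12. Cht11 had deposited values of -0.251 on replicate 1 and -0.204 on replicate 2. Its channel-reading mean was -0.23 ± 0.033 with a 95% interval from -0.44 to -0.019 (limma adjusted p = 0.71), and its dye-reading mean was -0.024 ± 0.32. Cht2 lay near 0 in both readings, at -0.028 and -0.022 as deposited.

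The Idgf proteins, imaginal disc growth factors, have the chitinase fold without the catalytic residue and act as secreted factors. All 6 genes were measured on both arrays, and 5 of them were positive on both in the dye reading. The median was 0.135 ± 0.0046, which is 1.36-fold on a log10 scale or 1.1-fold on a log2 scale, with array medians of 0.1255 and 0.132. Idgf6 had 0.157 on replicate 1 and 0.237 on replicate 2 (mean 0.20 ± 0.057, limma adjusted p = 0.993). The neighbours Idgf1, Idgf2 and Idgf3 had means of 0.18 ± 0.17, 0.12 ± 0.099 and 0.15 ± 0.079. By channel the means were -0.04 ± 0.28 for Idgf6, -0.12 ± 0.26 for Idgf1, 0.07 ± 0.17 for Idgf2 and -0.056 ± 0.21 for Idgf3. Idgf4 had 0.058 on each array. Idgf5 was the exception, with deposited values of 0.179 and 0.094, positive on both in the channel reading (mean 0.14 ± 0.060). Their channel-reading median was -0.02 ± 0.18.

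Over the chitinase class as a whole, 8 of 12 genes were positive on both arrays in the dye reading and 1 negative on both. The median was 0.127 ± 0.042, with array medians of 0.1115 on replicate 1 and 0.1715 on replicate 2, beside a median of -0.008 ± 0.0071 over all features. The channel-reading median was -0.030 ± 0.20 (0.028 with print-block medians removed), with 1 gene positive and 2 negative on both arrays. The Cht genes alone had a median of 0.0655 ± 0.086 by dye, with 3 positive and 1 negative on both arrays, and of -0.030 ± 0.157 by channel, with 0 positive and 2 negative.

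**Figure D2:**
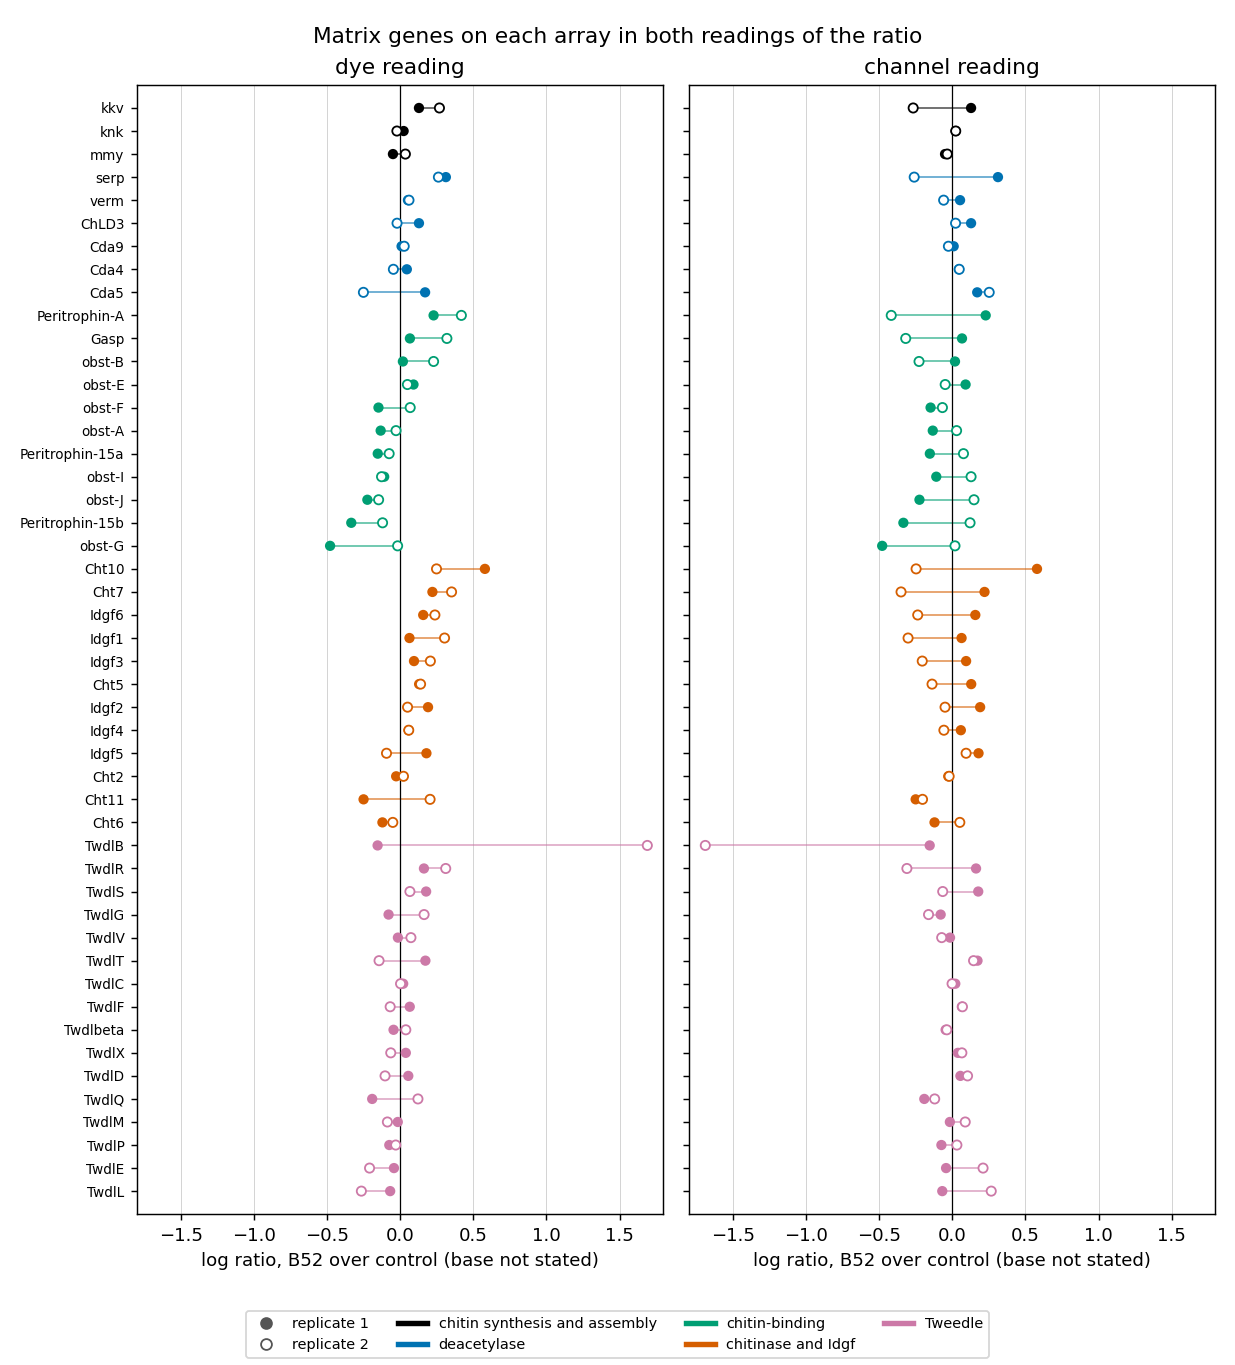
Log ratio of B52 over control (x axis, base not stated) on replicate 1 (filled) and replicate 2 (open) for each of the 48 genes, coloured by class, in the dye reading (left) and the channel reading (right). A line joins the arrays of a gene. In the dye reading both points of Cht10, Cht7, serp and Peritrophin-A are right of 0, and in the channel reading their points fall on opposite sides.

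Tweedle genes encode a family of insect cuticle proteins with a shared conserved domain, and dominant mutations of TwdlD give squat larvae and pupae. Of the 25 genes, 16 were measured on both arrays. Their median was -0.003 ± 0.0014 by dye (0.005 with each array centred) and 0.022 ± 0.022 by channel. The array medians by dye, -0.0165 and -0.0145, both lay below that median of the gene means. Both arrays were positive for 3 and negative for 4 in the dye reading, and the counts by channel were 4 and 5. TwdlD itself had deposited values of 0.055 on replicate 1 and 0.104 on replicate 2, with a mean of 0.080 ± 0.035 by channel (0.011 with print-block medians removed) and -0.024 ± 0.11 by dye.

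TwdlB had the widest gap between the arrays of any matrix gene. Its deposited values were -0.155 on replicate 1 and -1.69 on replicate 2. The channel-reading mean was -0.92 ± 1.1 with a 95% interval from -1.87 to 0.022 (limma adjusted p = 0.734), and the dye-reading mean was 0.77 ± 1.3. Replicate 2 alone decides the size of either mean. The standard deviation over the 16 Tweedle genes was 0.109 on replicate 1 and 0.45 on replicate 2. Without TwdlB, left out after its value had been seen, it was 0.105 and 0.149, and the medians were -0.004 by dye and 0.0355 by channel.

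TwdlR and TwdlS were the Tweedle genes with the largest positive values on both arrays in the dye reading. TwdlR had 0.162 on replicate 1 and 0.311 on replicate 2 (mean 0.24 ± 0.11, 95% interval from -0.00050 to 0.47, limma adjusted p = 0.901), and a channel-reading mean of -0.074 ± 0.33. TwdlS had 0.177 and 0.066 (mean 0.12 ± 0.078; 0.056 ± 0.17 by channel). On the negative side of that reading, TwdlL had -0.069 and -0.266 (mean -0.17 ± 0.14) and TwdlE -0.043 and -0.210 (mean -0.13 ± 0.12, and -0.074 with print-block medians removed). By channel TwdlL had 0.098 ± 0.24 and TwdlE 0.084 ± 0.18. TwdlM and TwdlP had means of -0.053 ± 0.050 and -0.053 ± 0.031. The third positive gene, TwdlC, lay at 0.020 and 0.002, near 0.

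In the channel reading TwdlT had 0.172 on replicate 1 and 0.145 on replicate 2 (mean 0.16 ± 0.019, limma adjusted p = 0.775). TwdlF had 0.065 and 0.069, and TwdlX 0.038 and 0.065. Negative values on both arrays were seen for TwdlQ, at -0.192 and -0.121 (mean -0.16 ± 0.050), and for TwdlG, at -0.080 and -0.163 (mean -0.12 ± 0.059). With print-block medians removed the TwdlG mean was -0.027. TwdlV had -0.016 and -0.073, and Twdlbeta -0.046 and -0.038. With print-block medians removed their means were 0.036 and -0.111, and that of TwdlX was 0.032. TwdlF and TwdlG lie side by side in the reference annotation and had opposite signs in this reading.

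Among the protein-coding genes of that annotation 12 Tweedle genes stand in an unbroken row: TwdlM, TwdlP, TwdlB, TwdlL, TwdlO, TwdlK, TwdlJ, TwdlN, TwdlH, TwdlR, TwdlS and TwdlD. Of these, 7 were measured on both arrays, and their dye-reading median was -0.024 ± 0.0099, beside -0.002 ± 0.013 for the 9 Tweedle genes outside the row. Of the 7, 2 had positive and 3 negative values on both arrays in that reading. By channel the medians were 0.0355 ± 0.034 in the row and 0.009 ± 0.0099 outside it, the opposite order. A single sign on both arrays was had there by 2 of the 7 and 7 of the 9 genes, against 5 and 2 by dye. The neighbours TwdlR and TwdlS were both positive by dye, and TwdlM and TwdlP, also neighbours, both negative.

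Tweedle and Cht genes were often without a value. No value on both arrays was had by 36.0% of the Tweedle genes and 40.0% of the Cht genes, against 13.5% of all genes, while every Idgf, deacetylase, chitin-binding and synthesis gene was measured on both. The table used here gives no intensity, so whether these spots were dim was not tested. On replicate 1 only, TwdlH had -0.927, TwdlJ 0.106 and TwdlY 0.167. On replicate 2 only, the deposited values were 0.425 for TwdlK, -0.039 for TwdlN, -0.156 for TwdlO and 0.555 for TwdlW. TwdlZ and Twdlalpha had no value on either array. Among the chitinases Cht4 had -0.218, Cht8 0.246 and Cht9 0.373 on replicate 1 only, and Cht12 had none. These 4 genes are neighbours in the annotation. A second probe of TwdlL had 0.124 on replicate 2 only, where the other had 0.266.

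Genes were also counted by size alone, with no p-value, as those with a single sign and at least 0.301 on each array, 2-fold on a log10 scale. This size was passed by 0 of the 48 genes in either reading, and by 1.39% of all features by dye and 1.46% by channel. At 0.2 it was passed by 4 genes in the dye reading, Cht10, Cht7, serp and Peritrophin-A, all higher in B52 larvae, or 8.33% beside 4.16% of all features (3.11% higher and 1.05% lower). Under the channel reading it was Cht11, lower, or 2.08% beside 4.56% (2.31% higher and 2.25% lower). At 1, the 2-fold size on a log2 scale, 0 genes and 0% of all features passed in either reading.

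The precision of 2 arrays set the limit. Over the 48 genes the 95% interval of limma reached a median of 0.233 either side of the mean by dye and 0.226 by channel. By dye 4 of the intervals and by channel 1 lay apart from 0, for the genes with an unadjusted limma p under 0.05. Over all features 5.55% by dye and 6.86% by channel had such a p. The intervals are not adjusted for the number of features. Their width rests in part on a variance shared over all features, and not only on a gene's own 2 arrays. For a single gene the exact sign-flip permutation test of 2 arrays cannot give a two-sided p below 0.5. Means smaller than the half-width of their interval could not be told from 0 even before adjustment. After adjustment wider ones also went uncalled, such as Cht10 with a dye-reading mean of 0.41 (limma adjusted p = 0.629). The lack of calls does not show that the larvae were alike.

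**Figure D3:**
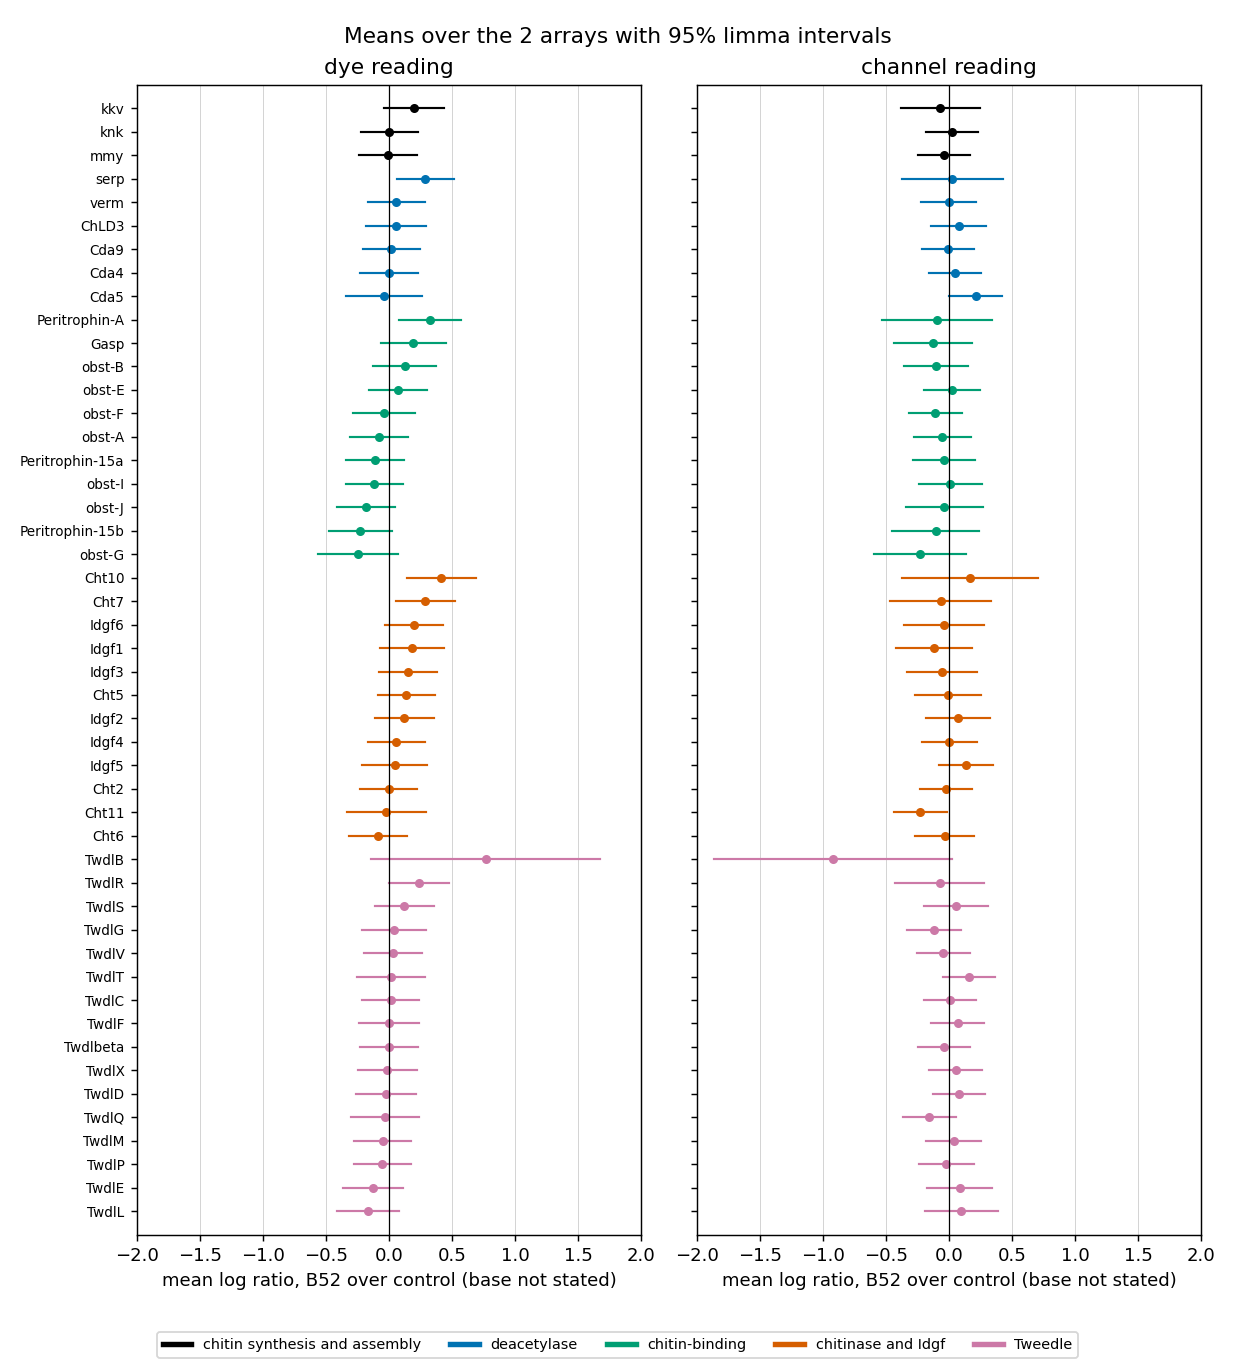
Mean log ratio of B52 over control over the 2 arrays (point; x axis, base not stated) with its 95% limma interval (line) for the 48 genes, by class, in the dye reading (left) and the channel reading (right). The intervals of Cht10, Cht7, serp and Peritrophin-A lie right of 0 in the dye reading, that of Cht11 lies left of 0 in the channel reading, and TwdlB has the widest interval in both.

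Markers of larval cell types and of the ecdysone response, the hormone response of moulting, were read beside these classes. Of 6 epidermal markers 5 were measured, 4 of them positive on both arrays in the dye reading and 1 negative, with a median of 0.279 ± 0.033, and array medians of 0.257 and 0.304. They include ple and Ddc, enzymes of cuticle tanning, at 0.73 ± 0.029 (limma adjusted p = 0.230) and 0.29 ± 0.026 (0.737), and grh, a regulator of cuticle genes, at 0.19 ± 0.10. Of 12 muscle markers 6 were measured, 5 of them positive on both arrays and 1 negative, with a median of 0.3485 ± 0.196. The channel-reading epidermal and muscle medians were -0.0045 ± 0.40 and -0.052 ± 0.52. The part of these tissues in the values of the matrix genes was not tested.

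Other dye-reading medians were 0.077 ± 0.123 for hemocytes (4 of 7 positive on both arrays, 1 negative), 0.0425 ± 0.145 for fat body (1 of 5 positive, 2 negative) and 0.011 ± 0.039 for salivary gland (3 of 8 positive, 2 negative). They were -0.015 ± 0.025 for trachea (2 of 5 positive, 2 negative), -0.0645 ± 0.075 for the ecdysone response (2 of 9 positive, 1 negative) and -0.095 ± 0.108 for midgut (1 of 9 positive, 3 negative). Their channel-reading medians were -0.032, 0.1185, -0.02, 0.0093, 0.0655 and -0.1055 in the same order. A ratio does not show whether a marker was expressed at all, so the markers could not show which tissues the RNA came from. Limma made 0 calls in the 8 marker lists at an adjusted p of 0.05 in either reading. At an unadjusted p under 0.05 in the dye reading it had 3 of 5 epidermal, 5 of 6 muscle, 3 of 8 salivary gland, 2 of 7 hemocyte, 2 of 5 tracheal, 1 of 9 midgut, 0 of 5 fat body and 0 of 9 ecdysone markers, all higher in B52 larvae, beside 5.55% of all features. The gene vvl (dye-reading mean 0.28 ± 0.15) stands in both the epidermal and the tracheal list and was counted in each. In the channel reading limma had 1 midgut marker, lower, and 1 ecdysone marker, higher, and 0 in other lists, beside 6.86% of all features.

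**Figure D4:**
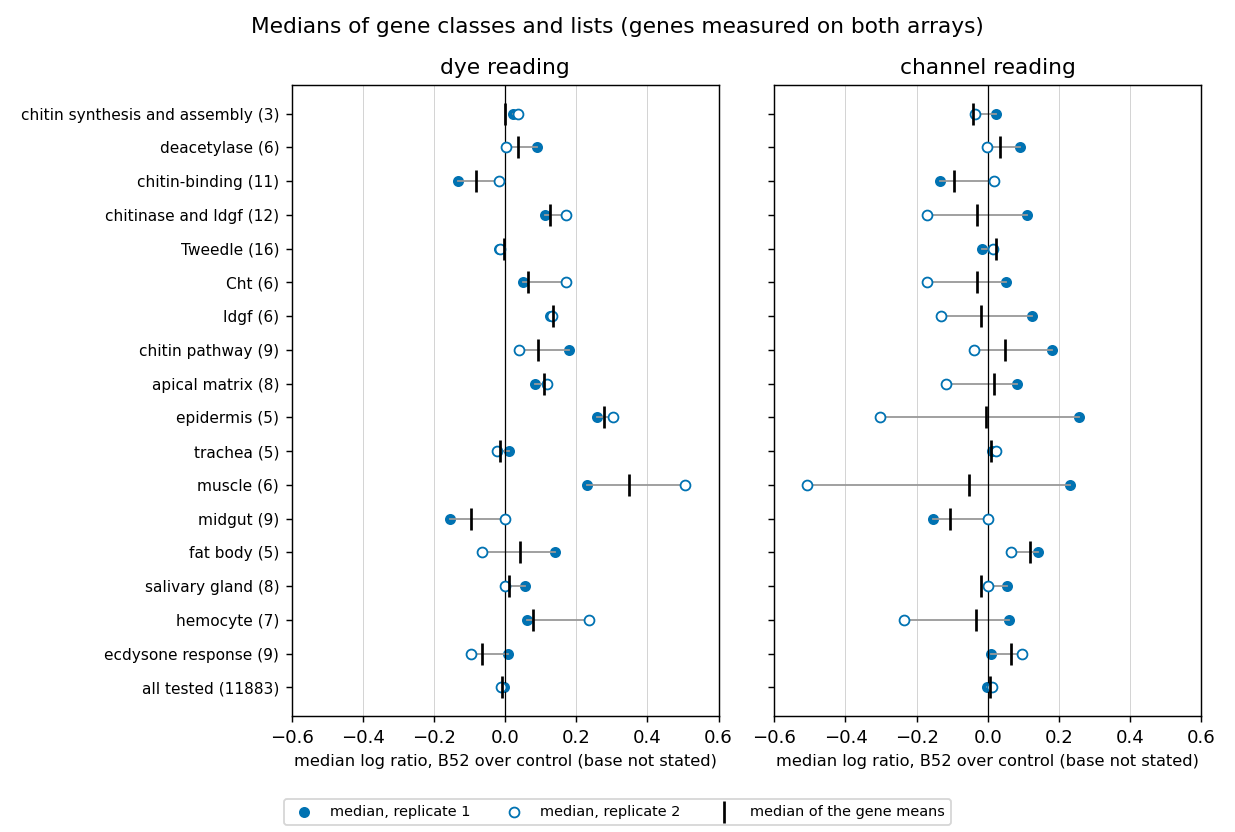
Median log ratio of B52 over control (x axis, base not stated) on replicate 1 (filled) and replicate 2 (open), and of the gene means (bar), for the matrix classes, the other pathway genes, the marker lists and all features, in the dye reading (left) and the channel reading (right). The number of genes measured stands in brackets. In the dye reading Idgf genes have array medians of 0.1255 and 0.132, epidermal markers 0.257 and 0.304, and muscle markers 0.2305 and 0.507. Both array medians also lie right of 0 there for the chitinase class, Cht genes, deacetylases and synthesis genes. The same holds for the chitin pathway and apical matrix lists and hemocyte markers. Both lie left of 0 for Tweedle genes, chitin-binding genes, midgut markers and all features.

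Values also differed by position on the array. The medians of the 24 print blocks ranged from -0.075 to 0.079 on replicate 1 and from -0.139 to 0.168 on replicate 2, and across the 24 blocks they had a Pearson r of 0.853 as deposited. Offsets of equal sign add by channel and cancel by dye. With block medians removed, the dye reading had 18 matrix genes positive and 9 negative on the arrays alike, 17 and 7 of them as before, and the mean turned its sign for 8 genes. By channel 9 were positive and 11 negative, 7 and 7 of them as before, and the mean turned its sign for 11 genes, among them Cht7, kkv and TwdlR. Among the 30 genes with a single sign in the dye reading, the mean stayed within 1.5 times its deposited size for 26. It became larger than that for 2 and smaller for 2. The single sign was lost by 6 genes, TwdlC, TwdlM, TwdlP, Cht5, obst-A and obst-G. Among the 18 of the channel reading the mean stayed within 1.5 times for 9, became larger for 2 and smaller for 5. It turned its sign for 2. The single sign was lost by 3 genes, TwdlD, Cda4 and obst-F. The smaller means by channel were those of TwdlD, TwdlG, TwdlX, Cda5 and obst-F, and by dye those of TwdlE and obst-I. For Cht10, serp and Peritrophin-A the dye-reading means were 0.45, 0.31 and 0.33 after this step (limma adjusted p = 0.491, 0.575 and 0.595).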

How the data were processed

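The values deposited by the authors are log ratios, 1 for every spot of an array, with image analysis, background correction, normalisation, log base and direction not given in the sources used here. Each array had 15744 spots, of which 13919 on replicate 1 and 14026 on replicate 2 held a value, after 5 spots of replicate 1 with the code -10000 were set to missing. Spots at 40 positions unnamed in each of 24 sub-grids, 960 in all, were left out as controls. Symbols came from the platform annotation and were updated by gene ID for 12519 of 13147 probes with 1 symbol. Probes of a gene measured on both arrays were averaged, which gave 10584 genes, and 1299 probes with no single symbol were kept on their own. Limma 3.58.1 (lmFit and eBayes, R 4.3.3) tested the mean of each of the 11883 features against 0, with Benjamini-Hochberg adjustment over all of them at 0.05. Each feature had 1 residual degree of freedom, and eBayes drew its variance toward a value estimated from all features. P-values and intervals thus rest on that shared value as well as on the gene's own 2 arrays. Idgf4, with an SD of 0 in the dye reading, had a standard error of 0.094 there. The test was tried on simulated data with independent features and no print-block offsets, so that trial does not cover such offsets. Summaries used Python 3.11.15 with pandas 2.3.3, numpy 2.4.6 and scipy 1.17.1, and plots matplotlib 3.10.9.

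Any matrix gene could be named, and up to 3 genes in each reading from the other pathway lists, those with a single sign and the largest size on the array where it was smaller. Members, gene lists and tests were chosen with earlier results of these data known. The number of arrays limits the precision. Reference positions were used only for which genes are neighbours, from RefSeq's Release 6 annotation, as the platform names no build. Sequences are not printed.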

Additional observations from a re-analysis of the deposited data

How the results depend on the processing

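Limma called 0 genes in both readings with probes one by one, with the robust form, with arrays centred, with arrays scaled to the same spread and with print-block medians removed. An ordinary 1-sample test also called 0, with 573 (dye) and 693 (channel) features at an unadjusted p under 0.05, against 659 and 815 in limma. That test left out 14 and 20 features with equal values on both arrays, Idgf4 and knk among them. With print-block medians removed limma had 7 (dye) and 2 (channel) matrix genes at an unadjusted p under 0.05, against 4 and 1. Over all features it had 787 and 633, against 659 and 815. The Tweedle median in the dye reading was 0.005 with arrays centred, against -0.003 as deposited. The median of the synthesis genes in the channel reading was 0.0195 with print-block medians removed, against -0.0425. The size rule gave 4 (dye) and 1 (channel) matrix genes at 0.2, against 0 at 0.301, and 1, Cht10, in the dye reading with print-block medians removed. On single arrays it gave 4 to 6 genes in each reading. The share of all features past 0.301 was not taken on a single array or with print-block medians removed. The counts in those settings thus have no comparison. Medians on single arrays ranged from -0.0165 to -0.0145 (dye) and from -0.0165 to 0.0145 (channel) for Tweedle genes. For chitinases they ranged from 0.1115 to 0.1715 (dye) and from -0.1715 to 0.1115 (channel). Deacetylases had 0.0025 to 0.0903 (dye) and -0.0025 to 0.0903 (channel). Chitin-binding genes had -0.134 to -0.018 (dye) and -0.134 to 0.018 (channel), and synthesis genes 0.023 to 0.035 (dye) and -0.035 to 0.023 (channel). The causes of these shifts were not tested. A single array leaves no spread, so the test was not run without a replicate. No paired analysis was possible because both RNAs lie on each array and only 1 group of arrays exists. The alternatives for single genes and the Tweedle values without TwdlB were added after seeing the data.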

Other observations

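The apical matrix also holds proteins with a zona pellucida domain, which anchor the cuticle to the epidermal surface and shape it. Of 12 such genes listed, 8 were measured on both arrays. Positive values on both arrays were had by 4 in the dye reading and negative ones by 1, with a median of 0.10925 ± 0.024 (SD of the array medians). In the channel reading 2 were positive and 1 negative, with a median of 0.018 ± 0.14. Limma made 0 calls in the list at an adjusted p of 0.05 in either reading. At an unadjusted p under 0.05 it had 2 genes by dye, both higher in B52 larvae, and 0 by channel. Over all features that share was 5.55% by dye (3.85% higher) and 6.86% by channel. The gene zye had dye-reading values of 0.288 on replicate 1 and 0.455 on replicate 2 (mean 0.37 ± 0.12, SD, n = 2 arrays, limma adjusted p = 0.593). The gene dpy, dumpy, a very large fibrous protein that links epidermis and cuticle, had 0.336 and 0.225 (mean 0.28 ± 0.078, limma adjusted p = 0.772), and qsm had 0.094 ± 0.037. Their channel-reading means were -0.084 ± 0.53, 0.056 ± 0.40 and 0.026 ± 0.13 for zye, dpy and qsm. In the channel reading cyr had 0.155 ± 0.18, neo 0.059 ± 0.078 and tyn -0.13 ± 0.057, where the dye reading gave 0.12 ± 0.22, -0.055 ± 0.083 and 0.040 ± 0.18.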
